A study of Mus musculus with 15 samples.

Results

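CTCF ChIP-seq peaks of wild type thymocytes were described along the whole mouse genome. The members were all peaks of the single CTCF library on chromosomes 1 to 19 and X, each chromosome, start and end counted once. This gave 35345 peaks from 35752 entries of the list, the other 407 entries being further summits of the same peaks. They are 35345 of the 185702 peaks in the 5 peak lists of the series. The cells were CD69-negative CD4+CD8+ thymocytes of wild type C57BL/6 mice, immature T cells that are rearranging the T cell receptor alpha chain and carry no early activation marker. The series holds 15 samples. The 2 Rad21 and 2 H3K27ac libraries of the same wild type cells were set beside the CTCF peaks, while 8 Hi-C and 2 input samples were not analysed here. With 1 CTCF library there is no replicate error for any CTCF value. Intervals are 95% Wilson intervals and cover counting error only, and the depth behind the peaks is unknown because no read counts were used. For Rad21 and H3K27ac the labels name replicates without giving their source, and a difference between them may be technical.

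CTCF is a zinc finger protein that binds a long, non-palindromic DNA sequence, so each bound site points in 1 direction along the chromosome. Cohesin, a ring complex of which Rad21 is a subunit, extrudes DNA loops and is halted at CTCF sites, most readily at those that point toward the inside of the loop. CTCF sites therefore mark many domain boundaries, and in lymphocytes they shape the antigen receptor loci before and during their rearrangement. H3K27ac is an acetylation of histone H3 found at active promoters and enhancers.

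The cell label was checked against promoter H3K27ac of marker genes. Over all 22350 protein-coding genes 44.7% carried promoter H3K27ac in replicate 1 and 43.0% in replicate 2. All 11 protein-coding markers of double-positive thymocytes carried it in both replicates, as did 2 of 6 B cell and 1 of 4 erythroid markers. Of 6 myeloid and 5 thymic epithelium markers, 1 each carried it in replicate 1 and 0 in replicate 2.

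The sites themselves show what a CTCF peak contains. Among the 12 peaks of highest fold enrichment, which is the caller's ratio of signal to local background, these 3 lay in introns or near a gene start and are printed 5′ to 3′ on the strand of the site, with the 13 bases that match the CTCF core consensus in capitals. Coordinates are of build mm9.
Pink1 intron, forward strand, chr4:137875587-137875627, fold 69.3: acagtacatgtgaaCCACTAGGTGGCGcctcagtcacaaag
Palld intron, forward strand, chr8:64018794-64018834, fold 61.5: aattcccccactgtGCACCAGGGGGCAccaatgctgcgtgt
158 bp from the Rplp0 start, forward strand, chr5:116009285-116009325, fold 57.2: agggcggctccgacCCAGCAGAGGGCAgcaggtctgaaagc
Not every core without mismatch lay in a high peak. This site, inside an intron of Arhgap42, has 0 mismatches and lies in a peak of fold 2.09, among the lowest of all peaks with a full core.
Arhgap42 intron, forward strand, chr9:9049397-9049437: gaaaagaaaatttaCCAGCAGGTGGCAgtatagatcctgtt
The highest peak of the list, at fold 70.9, was on chromosome 8 in an exon of Gdf15, which encodes a stress-induced cytokine.

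The peaks were narrow and sparse. Their median width was 200 bp (quartiles 158 and 238), and together they covered 7.31 Mb, or 0.286% of 2556 Mb of sequenced bases, at 13.8 peaks per Mb. Fold enrichment ranged from 1.34 to 70.9 with a median of 5.78 (quartiles 3.52 and 9.75). The list includes weak calls: 70.9% of peaks (interval 70.4 to 71.3) had a q-value of at most 0.05, and 50.5% had a −log10 q of at least 5.

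Chromosomes differed 3.11-fold in CTCF density, and 5.58-fold among peaks with a −log10 q of at least 5. Chromosome 11 was the densest with 22.97 peaks per Mb, followed by chromosome 19 with 19.2 and chromosome 17 with 17.03. Among the autosomes chromosome 3 had the fewest, 10.69 per Mb, next to 10.75 on chromosome 14. The X chromosome held 1199 peaks, or 7.40 per Mb. Its peaks were also lower, with a median fold of 4.20, a core consensus in 56.2% and Rad21 overlap in 39.9% and 44.5% by replicate. On the autosomes the same measures spanned median folds of 5.24 to 6.58, consensus shares of 67.1% to 76.6% and Rad21 shares of 58.9% to 68.95% in replicate 1. Over the 19 autosomes CTCF density followed the density of protein-coding genes, with a Spearman correlation of 0.87, given as a description because chromosomes share the library and their base composition.

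**Figure D1:**
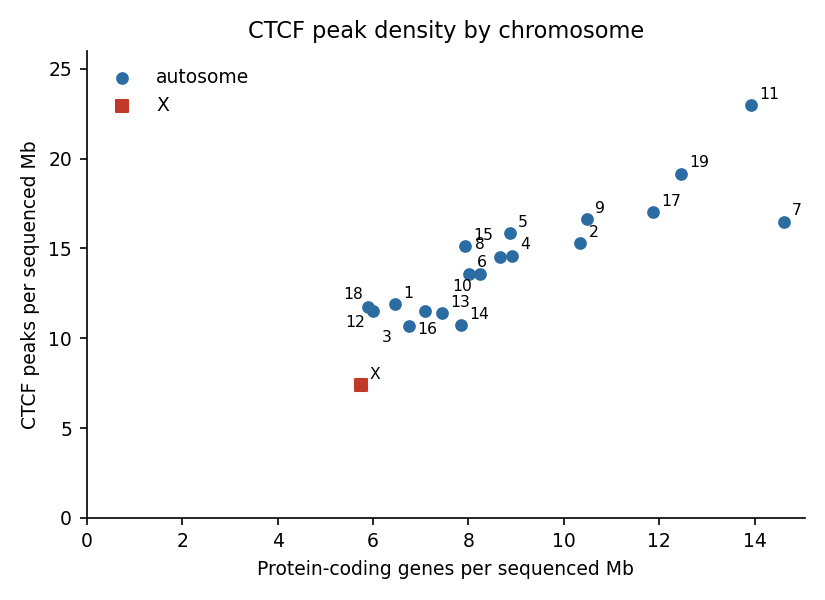
CTCF peaks per sequenced Mb (vertical axis) against protein-coding genes per sequenced Mb (horizontal axis) for each chromosome, blue circles for autosomes and a red square for X. Chromosome 11 stands highest at 22.97 peaks per Mb, chromosome 7 has the most genes but 16.5 peaks per Mb, and X is lowest at 7.40.

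The same unevenness was seen along chromosomes. Windows of 1 Mb held a median of 10 peaks (quartiles 4 and 20, n = 2565 windows), 107 windows held none and 133 held at least 40. The fullest window, on chromosome 10 from 80 to 81 Mb, held 81 peaks among 60 protein-coding genes, and its left neighbour held 73. Windows without a protein-coding gene had a median of 2 peaks, those with 5 to 9 genes 14, and those with 20 to 39 genes 33. The relation was loose among the richest windows: with 40 or more genes the median was 41 but the quartiles were 15.25 and 54. Gene number and CTCF number per window had a Spearman correlation of 0.72. The 107 windows without CTCF held the centres of 739 protein-coding genes.

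Neighbouring CTCF summits were a median of 24803 bp apart and a mean of 72562 bp apart. The smallest distance was 178 bp. Of 35325 distances 4.67% were at most 1000 bp, 29.4% at most 10000 bp and 82.9% at most 100000 bp. At the other end 809 distances of at least 500 kb made up 28.3% of the span. Peaks in the top 25% by fold were a median of 70730 bp from the next of their kind.

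Isolated peaks were the weakest. The 2286 peaks whose nearest neighbour was over 100 kb away had a median fold of 3.14, a core consensus in 35.9%, Rad21 in 23.01% and 23.8% by replicate, and a q of at most 0.05 in 31.4%. The 13897 peaks with a neighbour 1 to 10 kb away had a median fold of 6.77, a consensus in 79.8% and Rad21 in 69.7% and 72.3%. Peaks within 1 kb of another one differed from these: their consensus share was 68.0%, and H3K27ac overlapped 32.1% and 25.4% of them against 16.3% and 10.9%. The heights of neighbours were weakly related at every distance, with a Spearman correlation of -0.056 over 1648 pairs at most 1 kb apart, 0.089 at 1 to 10 kb, 0.095 at 10 to 100 kb and 0.207 over 6027 pairs farther apart.

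Peaks were next joined into chains, in which each summit lay at most 10000 bp from the next. By this measure 18274 peaks stood alone, 4397 chains had 2 peaks, 1442 had 3, 513 had 4 and 332 had 5 or more. Chains of at least 3 peaks held 23.4% of all peaks (interval 22.98 to 23.86), 13.8% among peaks with a −log10 q of at least 5, and 10.9% or 44.0% when joined within 5000 or 20000 bp. Median fold was 4.99 for lone peaks, 6.46 in pairs and 6.92 in chains of 5 or more, while Rad21 overlap in replicate 1 was 56.8%, 67.9% and 67.5%.

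The chain with the most peaks was on X, 16 peaks within 62439 bp at chrX:47914166-47976604. It lies over the lincRNA gene 6720401G13Rik, a synonym of Firre in the RefSeq gene table, a gene of a nuclear RNA known for its local repeats. Folds in the chain were moderate, from 3.93 to 11.0, and 15 of the 16 peaks had a q of at most 0.05. The core consensus with at most 2 mismatches was found in 2 of the 16. Of the others 11 had 3 mismatches and 3 had 4 or more. By the best match of any quality 7 sites were on the reverse strand, 5 on the forward strand, and 4 had no orientation. These 5 of the 7 reverse sites were chosen for their likeness to each other.
chrX:47919707-47919747, reverse strand: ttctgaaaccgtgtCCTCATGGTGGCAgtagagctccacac
chrX:47925529-47925569, reverse strand: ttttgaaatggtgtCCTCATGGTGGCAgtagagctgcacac
chrX:47933524-47933564, reverse strand: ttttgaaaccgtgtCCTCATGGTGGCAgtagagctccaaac
chrX:47937048-47937088, reverse strand: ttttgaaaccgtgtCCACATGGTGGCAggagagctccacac
chrX:47944021-47944061, reverse strand: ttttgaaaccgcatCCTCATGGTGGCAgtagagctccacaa
The capitals are the 13 bases nearest to the core consensus, and the fourth site is one of the 2 that pass. The Rad21 replicates differed here. Replicate 1 had a peak at 6 of the 16 sites and replicate 2 at all 16, and H3K27ac overlapped 2 and 8 of them. Over all CTCF peaks Rad21 overlapped 62.7% and 65.0%. The source of the difference at this chain was not tested.

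Of the other chains several lie within or between genes of known function. In Ksr2, a scaffold of the Ras pathway, 10 peaks within 28731 bp all had the consensus, 8 on the forward and 2 on the reverse strand, and the highest fold was 31.5. Over Mgll, Abtb1 and Podxl2 on chromosome 6, 10 peaks lay within 35169 bp and all 7 oriented sites were on the reverse strand. At the end of X, over Mid1, 10 peaks had a median fold of 3.56, and 5 had the consensus and 4 a q of at most 0.05. H3K27ac overlapped 9 of these 10 in replicate 1 and 3 in replicate 2, against 15.8% and 10.8% of all CTCF peaks. Over Tspan18 and Trp53i11 on chromosome 2, 10 peaks within 39968 bp had 6 forward and 3 reverse sites. Chains of 9 peaks lay over Slc35b2, Hsp90ab1 and Slc29a1 on chromosome 17, over BC057022 and the cation channel gene Trpv4 on chromosome 5, and over Hdac5 and BC030867 on chromosome 11. A further chain of 9, beside the immunoglobulin heavy chain locus, is described with that locus. The last of the 10 largest chains had 8 peaks over Ctdsp1 on chromosome 1, of which 3 had the consensus.

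Gene bodies held more CTCF than the space between genes. Protein-coding gene bodies, from the first to the last annotated base, make up 38.8% of sequenced bases and held 49.6% of the peaks (interval 49.1 to 50.1). This is 17.7 peaks per Mb inside against 11.4 per Mb outside, a ratio of 1.56. Of 22350 protein-coding gene bodies 8764, or 39.2%, held at least 1 peak: 4627 held 1, 4137 held 2 or more, 652 held 5 or more and 64 held 10 or more.

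Length separated genes with and without CTCF. Gene bodies with a peak had a median length of 38670 bp and those without 7760.5 bp. The share with a peak was 7.64% among the 5837 genes under 5 kb, 30.7% at 5 to 20 kb, 52.1% at 20 to 50 kb, 80.0% at 100 to 200 kb and 94.5% among the 200 genes of 500 kb or more. Density went the other way, from 4.08 peaks per 100 kb in the shortest class to 0.689 in the longest. Long genes thus held CTCF more often but were more thinly covered.

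**Figure D2:**
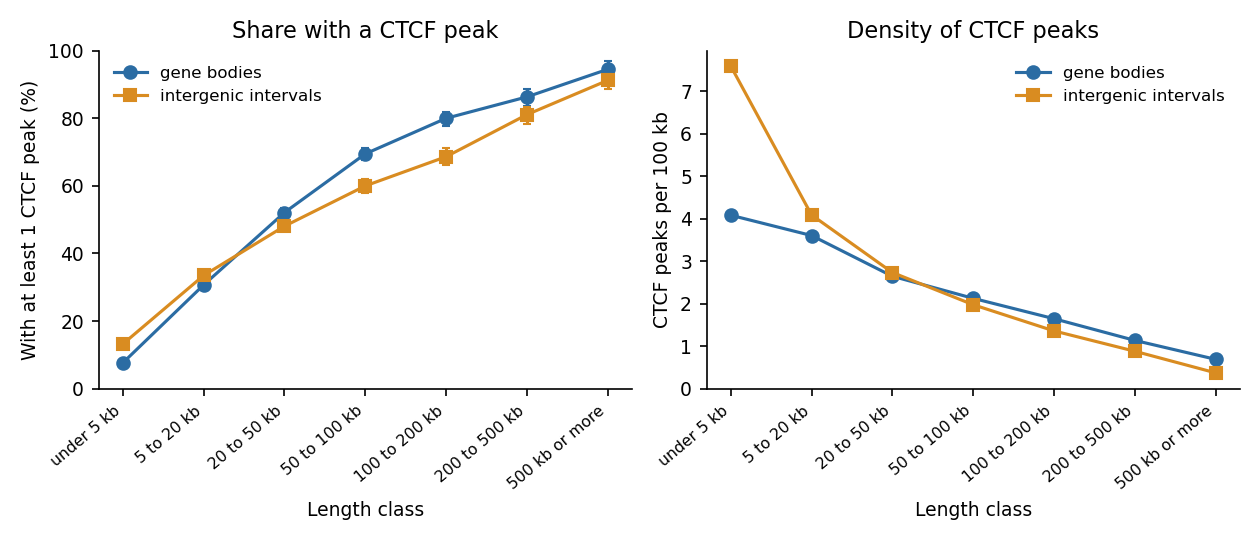
Share of protein-coding gene bodies (blue circles) and intergenic intervals (orange squares) with at least 1 CTCF peak, in percent with 95% Wilson intervals (left), and CTCF peaks per 100 kb (right), by length class. In both kinds of region the share rises with length, to 94.5% and 91.2%, while the density falls, to 0.689 and 0.371.

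The 12 gene bodies with the most peaks included a pair of very long models that span many neighbours. Gm20388 on chromosome 8 held 183 peaks in 4434882 bp and overlaps 74 other protein-coding genes, and Fgfr2 on chromosome 7, as annotated, held 56 in 3009069 bp and overlaps 32. Their counts are those of a neighbourhood and not of a gene. The next were Fry, which encodes a microtubule-associated protein, and Pde4d, a cAMP phosphodiesterase, with 23 peaks each. Fry packs them into 379086 bp, or 6.07 per 100 kb, and Pde4d into 1503528 bp, or 1.53 per 100 kb. Wwox, a tumour suppressor at a common fragile site, held 21. Rora, a nuclear receptor of the ROR family, held 19, with folds of 2.08 to 11.9 and Rad21 at 9 and 10 by replicate. The axonemal dynein gene Dnahc8 and Atxn1 held 18 each, Nav2 17, the chromatin remodelling subunit gene Arid1b and Kalrn 16 each, and Prkag2 15. The count of 15 was shared by Itpr2, Slc39a11, Frmpd4, Arfip1 and Cntnap2. Arid1b stood out for cohesin, with Rad21 at 15 and 13 of its 16 peaks, whereas Dnahc8 had it at 7 of 18 in both replicates. Sites did not follow the direction of transcription: over all gene bodies 49.2% of 12224 oriented sites were on the strand of the gene (interval 48.3 to 50.1).

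Among genes of at least 20 kb the densest were shorter. Suds3, a subunit of the Sin3 corepressor complex, held 6 peaks in 24312 bp, 24.7 per 100 kb, all with the consensus. Amz1 followed with 7 in 29184 bp and Wfdc1 with 5 in 21700 bp. Bcl6, a transcriptional repressor of follicular helper T cells and germinal centre B cells, held 5 peaks in 23801 bp, with folds of 5.09 to 10.8 and Rad21 at all 5 in both replicates. The 3 oriented sites of Bcl6 all faced against the gene. The other 6 were Lrrc42, the cytokine receptor gene Il17ra, the neuronal gene repressor Rest, Npas1, St6galnac6 and Tpm1, at 18.6 to 19.98 per 100 kb. Npas1 had the highest median fold of the 10, 16.3.

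The longest gene body without a CTCF peak was that of Cdh18, a cadherin of the nervous system, with 925397 bp. It was followed by Mgat4c with 709983 bp, the growth factor homologue Fgf14 with 699221 bp, Fstl5 with 635750 bp, the synaptic protein gene Clstn2 with 588787 bp, the axon guidance gene Sema6d with 577802 bp, Skint5 with 521613 bp, the axon guidance receptor gene Robo2 with 519520 bp, Pgcp with 511424 bp and L3mbtl4 with 504165 bp. Of these 10 only the peptidase gene Pgcp had H3K27ac at a promoter, in both replicates. No bases of the 10 are unsequenced. In all, 114 of 954 gene bodies of at least 200 kb had no peak.

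Between merged gene bodies lie 19775 intergenic intervals, of which 41.04% (interval 40.4 to 41.7) held a CTCF peak. Those with a peak had a median length of 40226 bp and those without 9545 bp. Short intervals were the most crowded: those under 5 kb had 7.59 peaks per 100 kb, against 4.08 in gene bodies of that size, and those of 500 kb or more had 0.371.

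The interval with the most peaks, 26, was chr12:115501162-117028912, which holds 62 variable segments of the immunoglobulin heavy chain. Next came the X interval around 6720401G13Rik with 22, and the interval from 1700092K14Rik to the ribosomal protein gene Rpl38 on chromosome 11 with 19, of which 18 had the consensus. The interval from Mtx2 to Hnrnpa3 on chromosome 2, beside the Hoxd cluster, held 18 peaks with a median fold of 9.06, and its oriented sites were 11 reverse and 2 forward. The 2776356 bp between Celf2 and Gata3, the transcription factor gene required for early T cell development, held 17 weaker peaks, with a median fold of 3.48 and 6 with the consensus. The interval between Rasgrp1, which links the T cell receptor to Ras, and Thbs1 held 15, with Rad21 at 14 and 11. The other intervals among the 8 were Fam86 to Rbfox1 with 17 and Uaca to Gm10655 with 16.

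The longest intervals without a peak were partly empty sequence. On chromosome 7 the 7198781 bp between Gm5591 and Gm16387 are 97.2% unsequenced, and on chromosome 8 the interval from Gpm6a to Gm1153 is 92.8% unsequenced. The others among the 8 are real sequence. They ran from Slitrk5 to Tpm3-rs7 on chromosome 14 (1631473 bp), from Adcyap1 to Mettl4 on chromosome 17 (1521594 bp), from Abca13 to Vwc2 on chromosome 11 (1429963 bp) and from Frk to Amd2 on chromosome 10 (1097464 bp), all without an unsequenced base. The remaining pair lay on chromosome 12 beside Gm17391 and were 6.48% and 9.21% unsequenced.

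Stretches of at least 1 Mb without a CTCF summit numbered 197, but 397 among peaks with a −log10 q of at least 1.3, 435 at 5 and 408 among peaks with the consensus. They held 290.8 Mb of sequenced bases and 1389 whole protein-coding genes. The other marks were rare there as well, but how well reads can be placed in these stretches was not measured for any list. Rad21 peaks numbered 0.578 and 0.640 per Mb by replicate, against 15.04 and 18.96 per Mb over the genome, and H3K27ac peaks 0.832 and 0.354 per Mb, against 15.1 and 9.69. After the unsequenced stretch of chromosome 7 the longest was chrX:23383582-30516948, 7133366 bp of which 5.61% is unsequenced, with 24 protein-coding genes including Slx and no Rad21 or H3K27ac peak in any replicate. Clusters of pheromone receptors formed the next: 4529438 bp of chromosome 7 with 64 Vmn genes and 3694688 bp of the same chromosome with 24. Further stretches lay on chromosome 12 (3615534 bp), at chrX:119915888-123312374 (3396486 bp), around Edil3 and Hapln1 on chromosome 13 (3292566 bp), over the defensin genes of chromosome 8, where 67.3% is unsequenced, around the glutamate receptor gene Grik2 on chromosome 10 (3031544 bp) and around Csmd3 on chromosome 15 (3031536 bp). The stretch around Edil3 and Hapln1 stood out for acetylation in replicate 1 only, with 20 H3K27ac peaks there and 3 in replicate 2. The stretch with 64 Vmn genes had 4 and 3, and it also had 5 and 6 Rad21 peaks.

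Gene families differed in how often they held CTCF. Olfactory receptor genes, short and arrayed in large clusters, held a CTCF peak in 5 of 1113 bodies (0.449%, against 39.2% of all protein-coding genes and 7.64% of those under 5 kb). Vomeronasal receptors held one in 2 of 322 and keratins in 1 of 51. None was found in 12 interferon alpha genes, which allows a share of up to 25%, or in 27 Klr genes, which allows up to 11.1%. The limit for interferon alpha genes, with a median length of 610 bp, includes the 7.64% of genes under 5 kb. Keratins and Klr genes have median lengths of 6990 and 13542 bp. Of all genes of 5 to 20 kb 30.7% held a peak. This is above the limit for Klr genes, but both limits treat the genes of a family as independent. Several Klra genes are neighbours in a 1-Mb window of chromosome 6 that holds no CTCF peak. The limit therefore cannot set the Klr family apart from its class. Families of longer genes stood above, near or below all genes in the length class of their median. A peak was found in 15 of 20 semaphorins (75%, against 52.1% of their class). Shares were near the class in Cacna calcium channel genes, with 12 of 14 (85.7% against 80.0%), and solute carriers, with 185 of 355 (52.1% against 52.1%). Kcn potassium channel genes were also near it, with 46 of 96 (47.9% against 52.1%). Cacna1a alone held 13 peaks. Shares were below the class in glutamate receptor genes, with 20 of 28 (71.4% against 86.3%), and in Cdh cadherins, with 12 of 23 (52.2% against 80.0%). Among families with a median length under 5 kb, where the class share is 7.64%, 9 of 40 Hox genes (22.5%), 2 of 24 clustered protocadherins (8.33%) and 3 of 66 histones (4.55%) held one. The protocadherin bodies held 13 peaks, 12 of them in 1 annotated body, at 2.59 per 100 kb against 1.76 in all protein-coding genes.

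Promoters, taken as 2000 bp on either side of a transcription start site (TSS) of a protein-coding gene, make up 5.71% of bases and held 19.4% of CTCF peaks (interval 19.01 to 19.83). Density there was 47.0 peaks per Mb, against 14.5 in introns and 9.95 between genes. At least 1 peak was found at the promoters of 5779 of 22350 genes, or 25.9%. Among promoters with H3K27ac the share was 41.6% by replicate 1 and 42.0% by replicate 2, and among those without 13.1% and 13.7%. Promoter peaks had Rad21 more often than intergenic ones, in 72.6% and 75.3% against 59.7% and 61.4%, but the consensus less often, in 64.6% against 73.2%.

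Within promoters the peaks favoured the upstream side. The 250 bp before the TSS held 700.8 peaks per 100 bp summed over genes, and the 250 bp after it 358. The upstream peaks were also higher, with a median fold of 7.95 against 4.73, and had the consensus in 60.1% against 43.1%. From 5 to 10 kb upstream the density was 44.2 and the consensus share 82.4%. Of the 12 distance classes within 10 kb the 250 bp after the TSS had the lowest consensus share. Rad21 overlap in replicate 1 was 80.5% in the 250 bp before and 72.2% in the 250 bp after the TSS.

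Cytosolic ribosomal protein genes are short, with a median length of 3243 bp. A body peak was found in 18 of 83 (21.7%, against 7.64% of all genes under 5 kb). At the promoter 40 of 83 held one (48.2%, against 25.9% of all). H3K27ac marked 95.2% of their promoters in both replicates, and of all promoters with H3K27ac 41.6% and 42.0% held CTCF. Rpl22 had 4 peaks. Of 36 thymocyte genes 26 held a body peak and 15 (41.7%) a promoter peak. H3K27ac lay at 34 of their 36 promoters in both replicates, against 44.7% and 43.0% of all protein-coding genes. The median length of the thymocyte genes is 27866 bp, and 52.1% of all genes of 20 to 50 kb held a peak. Ptcra is not classed as protein-coding in this annotation and was left out.

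The thymocyte genes differed in how much CTCF they held. Tox, a transcription factor of CD4 lineage development, and the survival gene Bcl2l1 had 5 peaks each, all with Rad21 in both replicates. Bcl11b, which commits cells to the T lineage, had 4, with folds of 3.68 to 7.91, and its 3 oriented sites were on the strand of the gene. Runx1 had 4 peaks, all 4 facing against the gene. The highest single peaks were in Runx3 at fold 19.1, in Cd247, the zeta chain of the T cell receptor complex, at 17.9, in Dntt, which adds bases at V(D)J junctions, at 14.2 and in the chemokine receptor gene Ccr7 at 13.6. The co-receptor genes were modest: Cd4 had 1 peak at fold 2.28 without the consensus, Cd8b1 1 peak at 3.41 and Cd8a none. Rag1 had 1 peak at fold 4.58, while Rag2, Zap70, Lat, Id3, Cd28 and Cd69 had none in the body.

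Genes of chromosome architecture held a body peak in 12 of 21 cases (57.1%, against 52.1% of all genes of 20 to 50 kb, the class of their median length) and a promoter peak in 11 (52.4%, against 25.9% of all promoters). H3K27ac marked 19 and 18 of the 21 promoters, against 44.7% and 43.0% of all protein-coding genes. Of all promoters with H3K27ac 41.6% and 42.0% held CTCF. Ctcf itself held 5 peaks, the highest at fold 25.7, and its testis paralogue Ctcfl held 3 without promoter H3K27ac. Nipbl, the cohesin loader, had the most, 6, of which 1 had the consensus and 1 a q of at most 0.05. Stag1 held 4 peaks, with a highest fold of 26.998, and the cohesin deacetylase gene Hdac8 held 3 of fold 7.37 to 12.7. The cohesin regulators Pds5a and Pds5b held 2 each. Rad21, Smc1a, Stag2, Mau2 and Wapal held none in their bodies, and Stag2 had one at the promoter.

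The core consensus of CTCF is a degenerate 13-base sequence, written here by its name. With at most 2 mismatches on either strand it was found within 50 bp of the summit in 72.4% of peaks (interval 71.9 to 72.8), against 3.45% of 255565 windows of the same 101 bp spread evenly over the genome. Height fell with each mismatch. Median fold was 8.95 in the 5605 peaks with 0 mismatches, 6.95 with 1, 6.05 with 2, 4.20 with 3 and 2.88 with 4 or more. Rad21 overlap in replicate 1 fell with it, from 79.5% to 72.9%, 70.6%, 55.1% and 16.5%, and in replicate 2 from 81.5% to 18.1%. Peaks with 3 mismatches were those most often at promoters, 35.4% of them, and most often under H3K27ac, 33.2% and 27.2%. The bases beside the core were not random either: the 12th base before it was T in 56.4% of oriented sites and the 10th C in 51.4%, while the 1st base after it was C in 47.9%.

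Some sites were exact copies. Of 25052 oriented sites 301, or 1.20%, shared all 33 bases around the core with another peak. This sequence, shown because it had the most copies, occurred under 18 peaks on 13 chromosomes, with folds of 2.61 to 14.0 and Rad21 at 11 of them in each replicate.
18 copies: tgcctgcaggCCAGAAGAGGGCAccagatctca
The next had 12 copies on 8 chromosomes, with folds of 3.93 to 11.0 and Rad21 at 7 and 4 of them.
12 copies: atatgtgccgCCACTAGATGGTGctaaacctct
Within the first set the highest fold was 5.35 times the lowest.

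Of the oriented sites 49.5% were on the forward strand. Neighbouring oriented sites fell into 3 kinds: convergent, with the left site forward and the right site reverse, divergent, the opposite, and pairs in the same orientation. The same orientation made up 50.1% of 25032 neighbouring pairs (interval 49.5 to 50.7). Convergent and divergent pairs alternate along a chromosome, so their numbers, 6248 and 6249, are equal by construction and carry no information. Their distances are not bound in this way. Convergent neighbours were a median of 43370.5 bp apart (quartiles 14338 and 107461), divergent ones 23453 bp (8370 and 60346) and pairs in the same orientation 27370 bp (8634 and 70863). The convergent median was thus 1.85 times the divergent one.

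The shares of the 3 kinds also differed by distance. At most 1 kb apart 21.8% of pairs were convergent and 25.2% divergent. From 1 to 5 kb 17.9% of pairs were convergent and 28.0% divergent. From 20 to 50 kb the shares were 23.8% and 26.2%, from 200 to 500 kb they were 37.3% and 18.4%, and over 500 kb 34.5% and 19.1%. Same-orientation pairs made up 54.1% at 1 to 5 kb and 44.3% at 200 to 500 kb. Between neighbouring sites with Rad21 in both replicates the medians were 60934 bp for convergent and 32541 bp for divergent pairs. Between neighbouring sites with Rad21 in neither replicate they were 218454 and 200095 bp, and 170078 bp for the same orientation. These sites are fewer and weaker, and the difference between the subsets was not tested.

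**Figure D3:**
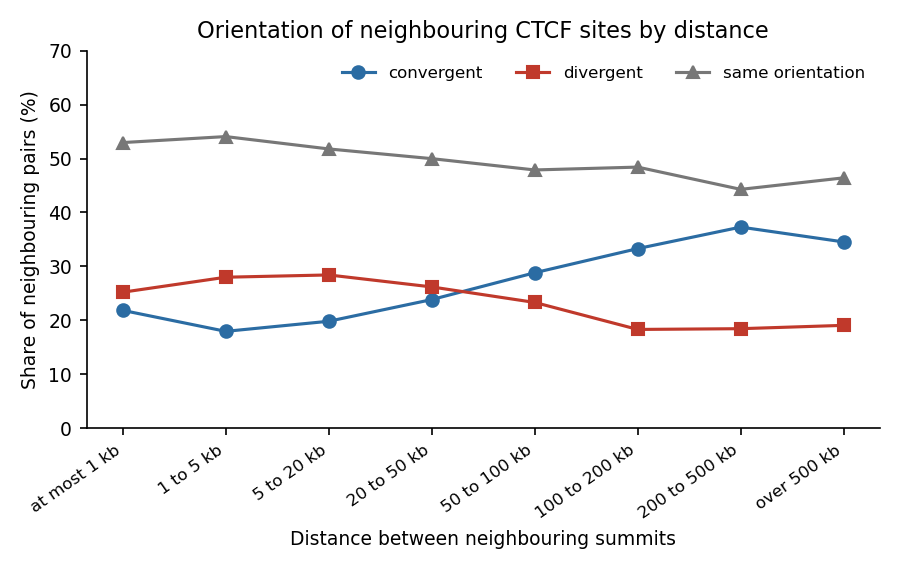
Share of neighbouring oriented CTCF sites (percent, vertical axis) that were convergent (blue circles), divergent (red squares) or in the same orientation (grey triangles), by the distance between summits (horizontal axis). The convergent share rises from 17.9% at 1 to 5 kb to 37.3% at 200 to 500 kb, and the divergent share falls from 28.0% to 18.4%. In the shortest and longest classes the convergent share is 21.8% and 34.5%.

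Where Rad21 lay relative to the site was measured at oriented sites with a Rad21 summit within 200 bp of the centre of the core. The Rad21 summit was a median of 9 bp on the 3′ side of this centre in both replicates (quartiles 0 and 18 over 18365 sites, and -2 and 19 over 18938). It lay on the 3′ side at 74.9% of sites (interval 74.2 to 75.5) in replicate 1 and 72.3% (71.6 to 72.9) in replicate 2. The CTCF summit itself had a median of -2 bp, just 5′ of the centre of the core. The shift was as large on either strand, 9 bp for forward and 10 bp for reverse sites in replicate 1, and 8 and 9 bp in replicate 2. Of 17002 sites measured in both replicates 69.4% had the summit on the same side in both. An offset of this size is small beside a median peak width of 200 bp.

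**Figure D4:**
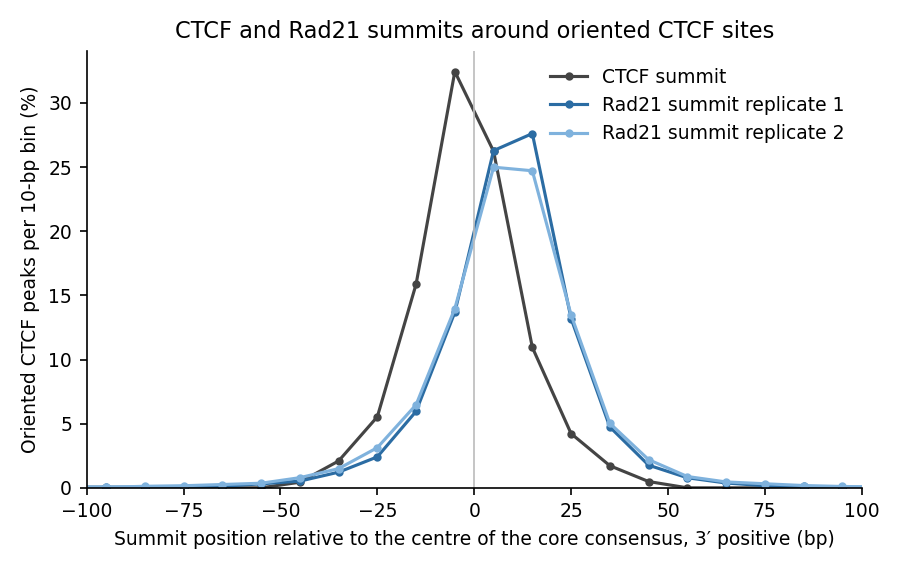
Position of the CTCF summit (dark grey) and of the Rad21 summit in replicates 1 and 2 (dark and light blue) relative to the centre of the core consensus in bp, 3′ positive, as the percentage of measured sites per 10-bp bin. The CTCF curve peaks just left of 0 and both Rad21 curves are shifted to the right, with medians of -2 bp and 9 bp.

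The longest run of neighbouring sites in the same orientation was at the immunoglobulin heavy chain locus, Igh. All 37 oriented sites in a row at chr12:114816541-117266581 were on the reverse strand. The next longest runs had 13 sites: Mgll to Tpra1 on chromosome 6 (reverse), Rab35 to Tmem233 on chromosome 5 (forward) and Rcl1 to Ermp1 on chromosome 19 (reverse), the last a region with Jak2 and the checkpoint ligand genes Cd274 and Pdcd1lg2. Runs of at least 8 sites numbered 85 among 12517. With 50.1% of all neighbouring pairs in the same orientation, some such runs arise at random, and their expected number was not computed. Among peaks with a −log10 q of at least 5 the Igh run was no longer the longest, which was then 13 reverse sites on chromosome 5, whereas at a −log10 q of at least 1.3 the Igh run was still the longest, with 31 sites.

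Igh encodes the heavy chain of antibodies, a product of B cells, and held many CTCF peaks in these thymocytes. Between its outermost annotated segments, chr12:114523536-117238672, there were 44 peaks with a median fold of 4.20 (2.09 to 18.2), of which 31 had a q of at most 0.05 and 24 and 23 overlapped Rad21. The core was found in 37, 36 on the reverse and 1 on the forward strand, and 139 of the 141 gene segments of the locus are also on the reverse strand. The forward site was 1 of a pair of opposite orientation, 88952 and 86354 bp downstream of the nearest variable segment, with folds of 9.14 for the reverse and 9.22 for the forward site. These 4 sites had the highest folds of the run and share a core of nearly the same letters.
chr12:116843362-116843402, reverse strand, fold 18.2: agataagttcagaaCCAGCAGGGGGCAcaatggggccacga
chr12:116771510-116771550, reverse strand, fold 14.0: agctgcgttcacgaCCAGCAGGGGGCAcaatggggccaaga
chr12:114816630-114816670, reverse strand, fold 10.3: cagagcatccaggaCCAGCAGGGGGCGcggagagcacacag
chr12:114849308-114849348, reverse strand, fold 9.75: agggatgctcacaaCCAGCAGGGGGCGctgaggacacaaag

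A group of Igh peaks lay at a like distance from variable segments. Of the 44 peaks 11 had their summit 53 to 93 bp downstream of the 3′ end of a variable segment, the side on which the recombination signal lies, and all 11 sites were on the reverse strand. They lay between 293.1 and 1193.6 kb from the low end, which is the end with the constant genes. The other 8 of the 19 peaks in that range were inside a segment or 2996 to 18206 bp from one. The highest peak, at fold 18.2, lay 939 bp upstream of a segment and 2319.85 kb from the low end.

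Outside the low end of Igh, between Tmem121 and Gm900, a chain of 9 CTCF peaks lay within 8512 bp at chr12:114454225-114462736. All 9 had a q of at most 0.05, folds were 7.91 to 19.2, and Rad21 overlapped 8 in replicate 1 and 9 in replicate 2. Its 7 oriented sites were all on the forward strand, so they face the reverse sites of the variable region across the locus. It was the shortest of the 10 chains with the most peaks. Of the 7 oriented sites, the 4 with at most 1 mismatch to the core are printed, and the other 3 had 2 mismatches.
chr12:114454315-114454355, forward strand, fold 8.43: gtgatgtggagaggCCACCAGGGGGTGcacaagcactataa
chr12:114455659-114455699, forward strand, fold 7.91: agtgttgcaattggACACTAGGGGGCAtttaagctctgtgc
chr12:114458250-114458290, forward strand, fold 19.2: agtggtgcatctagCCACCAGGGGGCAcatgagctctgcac
chr12:114459605-114459645, forward strand, fold 8.96: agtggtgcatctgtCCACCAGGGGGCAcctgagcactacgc

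In the T cell receptor alpha and delta locus and the beta locus most sites were on the forward strand. In the alpha and delta locus on chromosome 14 there were 24 peaks in 1795 kb, 16 oriented forward and 4 reverse, and 171 of 172 segments are on the forward strand. Rad21 overlapped 20 of them in both replicates. Here 9 peaks had their summit 25 to 203 bp upstream of a variable segment, on the promoter side, and 0 within 100 bp downstream of one. The highest were a pair 1110.2 and 1113.9 kb from the low end, with folds of 14.4 and 15.3, the first forward and the second reverse. Of the last 3 peaks of the locus, at the constant end, 2 were reverse and 1 forward.

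In the beta locus on chromosome 6 there were 16 peaks in 667 kb, at 2.40 per 100 kb the densest of the loci, with 12 forward sites and 1 reverse, and 40 of 41 segments forward. Rad21 overlapped 14 and 15. The highest folds, 15.0 at each of 2 neighbouring peaks, lay 221.8 and 227.1 kb from the low end, and H3K27ac overlapped both in both replicates. No peak was found between 303.4 and 665.3 kb. Peaks were counted on the reference sequence, and how much of each receptor locus remained after rearrangement was not measured.

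The light chain and gamma loci held fewer peaks. Igk held 6 peaks in 3171 kb, at 0.189 per 100 kb, with 4 forward and 2 reverse sites, while its variable segments lie on both strands, 44 of all 105 segments forward and 61 reverse. No Igk peak was within 2 kb of a variable segment. Igl held 1 peak in 195.6 kb, or 0.511 per 100 kb. The gamma locus, Tcrg, held 2 in 174.3 kb, and its 1.15 per 100 kb is near the 1.34 of the alpha and delta locus. The 1 oriented site of Tcrg was on the reverse strand, while 11 of its 14 segments are on the forward strand.

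**Figure D5:**
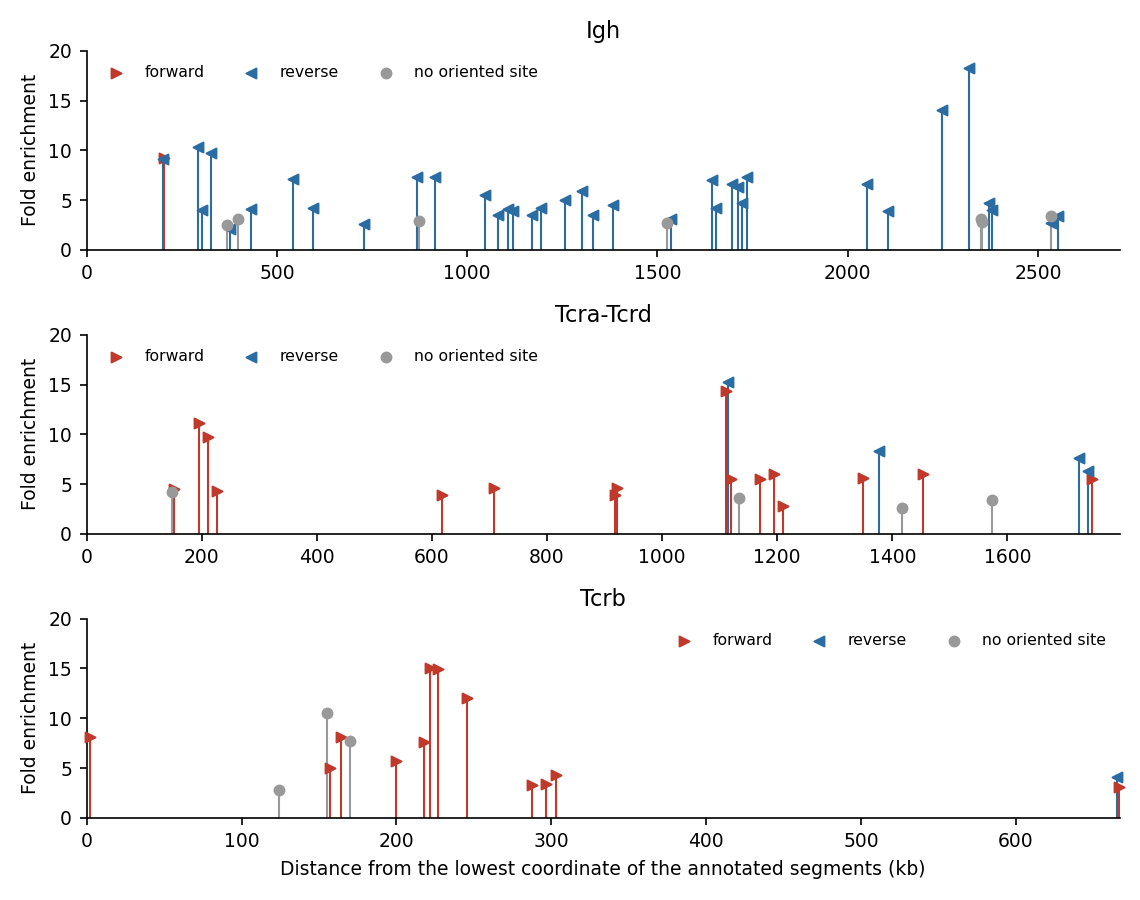
CTCF peaks in the immunoglobulin heavy chain (Igh), T cell receptor alpha and delta (Tcra-Tcrd) and T cell receptor beta (Tcrb) loci, by distance from the lowest coordinate of the annotated segments in kb (horizontal axis) and fold enrichment (vertical axis). Triangles point in the direction of the site, red forward and blue reverse, and grey circles have no oriented site. Igh has 36 reverse sites and 1 forward, Tcra-Tcrd 16 forward and 4 reverse, and Tcrb 12 forward and 1 reverse.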

How the data were processed

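For the wild type thymocytes 5 ChIP-seq peak lists were read, CTCF with 1 library and Rad21 and H3K27ac with 2 each, grouped by the labels. The members and gene lists were chosen with earlier results of these data known. The submitters' processing notes name build mm9, Bowtie 1.0.0 and MACS2 2.1.0. No source used here gives the peak threshold or control. The fold enrichment (a ratio), −log10 p, −log10 q and score are the authors' deposited values per peak and served only to describe, rank or filter peaks within a list. Summits are as deposited.

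Peaks were placed by summit on GENCODE vM1 and NCBIM37, the assembly shown as mm9, with pysam 0.24.0 and pandas 2.3.3. Rad21 and H3K27ac overlaps needed 1 bp. The consensus was searched on both strands, and sites tied between strands had no orientation. Picked by rank were the 12 gene bodies with most peaks, the 10 densest of at least 20 kb and the 10 longest without. So were the 8 intervals with most and 8 longest without, the 10 largest chains and longest stretches, and the 12 highest peaks. Fixed gene lists were used as well. Only some of the 12 highest peaks and of the genes on the fixed lists are named in the text. With 1 CTCF library no test was run. The scripts were tested on simulated data.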

Additional observations from a re-analysis of the deposited data

How the results depend on the processing

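Of 59 recomputed values 19 stayed within the interval or spread of the main value (counts within 1.5 times) and 40 moved. A reversal was defined only for 3 results, and none of them reversed. They were the ratio of density inside gene bodies to that between genes, the ratio of convergent to divergent distances and the Rad21 offset. With a −log10 q of at least 1.3 and 5, the median distance became 27712 and 37082 bp, the share in chains of at least 3 peaks 19.8% and 13.8%, gene bodies with a peak 32.1% and 25.5%, intergenic intervals with a peak 34.9% and 28.9%, stretches of at least 1 Mb 397 and 435, peaks with the consensus 87.0% and 90.1%, same-orientation pairs 49.3% and 48.6%, the chromosome ratio 4.23 and 5.58, and promoters with a peak 20.7% and 15.5%. At 5 the share in gene bodies was 48.4%, the density ratio 1.48, the ratio of convergent to divergent distances 2.07 and the longest run 13. Peaks with the consensus alone gave 28650 bp, 19.1% in chains and 408 stretches. Counting every summit gave 24256.5 bp and 24.5%, and chaining within 5000 or 20000 bp 10.9% or 44.0%. Genes of every biotype gave 52.3% of peaks in bodies and 26.2% of bodies with a peak, and bodies extended by 2000 bp 48.2%. Autosomes alone gave 24264 bp, a density ratio of 1.52 and a chromosome ratio of 2.15. Intervals of at least 10000 bp gave 54.2% and promoters of 500 bp 15.6%. With at most 1 mismatch the consensus share was 51.8%, same-orientation pairs 49.3% and the reverse share at Igh 100%. The cause of these shifts was not tested beyond the smaller number of peaks or regions kept. The Rad21 offset was 9 bp under every alternative, without either replicate included. Leaving out Gm20388 and Fgfr2, and the ratio of convergent to divergent distances, the longest run and the reverse share at Igh with their alternatives, were chosen after seeing the data. No paired analysis was possible because CTCF has 1 library. Since the lists hold no read counts, what depth limits could not be measured.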
